A study of Mus musculus with 22 samples.

Results

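Pou3f1, Pou3f2, Pou3f3 and Pou3f4 are the class III POU transcription factor genes of the mouse. These 4 of the 22518 genes listed in the deposited expression tables were chosen by name, as all members of the class, and no expression value entered the rule. Poly(A)-selected RNA was sequenced in 22 libraries from C57BL/6 mice, 2 for each of 11 groups. Cultures of mouse embryonic fibroblasts under induction towards neural progenitors were sampled on days 1, 4, 7, 10, 14, 17 and 21. Primary neurosphere-like clusters that formed in these cultures made up the pre-NPC group, and the giNPC P6 group held the established induced neural progenitor line at passage 6. Teratoma was a further group, whose cells of origin and host the sources used here do not name. Neural progenitors grown from neonatal brain (Brain-NPC) were the natural counterpart of the induced cells. As the induction factors, too, are unnamed in those sources, any introduced copy of a gene could not be separated from the endogenous one. The labels do not say whether libraries of a group stem from different cultures or animals, so the p-values measure the spread between these libraries, which may be technical.

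POU factors bind DNA through a POU-specific domain and a POU homeodomain joined by a flexible linker, and the class III members bind many sites together with SOX factors. A known example is the neural enhancer of the nestin gene, where class III POU and SOX proteins sit side by side. All members of the class are intronless genes expressed in the developing nervous system. Pou3f1, also called Oct6 or SCIP, times the onset of myelination in Schwann cells. Pou3f2 (Brn2) is used in mixtures of factors that turn fibroblasts into neurons. In the mouse cortex Pou3f2 and Pou3f3 (Brn1) act largely redundantly in the production and migration of upper-layer neurons. Pou3f4 (Brn4) acts in inner ear and forebrain development and has been used with SOX2, KLF4 and MYC to turn fibroblasts into neural stem cells.

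The members are dispersed in the genome. In the authors' tables, in mm9 coordinates, Pou3f1 lies at chr4:124334889-124337899, Pou3f2 at chr4:22409242-22415513, Pou3f3 at chr1:42753991-42757054 and Pou3f4 at chrX:108009804-108010889, each with 1 transcript. The Pou3f4 model of 1086 bases is little longer than its coding length of 1083 bases, while the models of Pou3f1, Pou3f2 and Pou3f3 span 3011, 6272 and 3064 bases. Reads from the untranslated parts of Pou3f4 therefore did not count towards it. In the GENCODE annotation, the transcripts of Pou3f1 and Pou3f3, at 3849 and 7409 bases, are also longer than their models. That of Pou3f2, at 5587 bases, is not. Levels were not corrected for the parts left out.

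Whether reads of these genes can be assigned to the right member depends on how alike the sequences are. Aligned over their coding sequences, pairs of members were between 53.9% (Pou3f3 and Pou3f4) and 63.3% (Pou3f2 and Pou3f3) identical. The longest run of bases shared without a mismatch by the transcripts of any pair was 38 bases, between Pou3f1 and Pou3f2. In windows of 100 bases, the length of a read, the closest pair was Pou3f1 and Pou3f3, which still differed at 6 positions. The stretch of 100 coding bases in which all members are most alike is printed below because it is where a read is hardest to place. Coordinates are GRCm38, sequences are on the strand of the gene, and capitals mark the bases that differ from Pou3f2. In this stretch Pou3f1 differed from Pou3f2 at 7 positions, Pou3f3 at 12 and Pou3f4 at 9.
Pou3f1 (chr4:124658523-124658622, plus strand): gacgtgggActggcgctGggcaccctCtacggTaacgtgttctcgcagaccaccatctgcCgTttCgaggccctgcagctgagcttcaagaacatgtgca
Pou3f2 (chr4:22487159-22487258, minus strand): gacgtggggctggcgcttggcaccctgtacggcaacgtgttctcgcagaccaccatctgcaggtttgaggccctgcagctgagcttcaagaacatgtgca
Pou3f3 (chr1:42698160-42698259, plus strand): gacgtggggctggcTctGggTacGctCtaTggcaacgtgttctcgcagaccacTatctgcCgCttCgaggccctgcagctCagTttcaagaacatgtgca
Pou3f4 (chrX:110815104-110815203, plus strand): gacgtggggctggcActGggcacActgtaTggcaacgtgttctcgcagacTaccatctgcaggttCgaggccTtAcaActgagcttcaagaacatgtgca

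Promoters are shown because Pou3f2, Pou3f3 and Pou3f4 were all called higher from day 7 to day 10, as described further on. RefSeq start sites on GRCm38.p6 were matched for Pou3f2, Pou3f3 and Pou3f4, and the 250 bases before each start are printed, with each CCAAT box in capitals (ATTGG where it lies on the opposite strand).
Pou3f2 (chr4:22488367-22488616, minus strand): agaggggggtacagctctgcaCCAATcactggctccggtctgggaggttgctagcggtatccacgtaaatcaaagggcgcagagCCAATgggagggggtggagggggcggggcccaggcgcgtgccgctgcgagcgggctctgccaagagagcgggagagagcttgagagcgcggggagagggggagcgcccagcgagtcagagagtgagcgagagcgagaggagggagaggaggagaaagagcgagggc
Pou3f3 (chr1:42695518-42695767, plus strand): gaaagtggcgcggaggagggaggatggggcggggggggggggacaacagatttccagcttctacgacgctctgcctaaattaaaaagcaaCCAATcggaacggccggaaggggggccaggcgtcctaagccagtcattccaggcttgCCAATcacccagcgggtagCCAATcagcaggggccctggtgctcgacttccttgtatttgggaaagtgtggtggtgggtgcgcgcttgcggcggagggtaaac
Pou3f4 (chrX:110814129-110814378, plus strand): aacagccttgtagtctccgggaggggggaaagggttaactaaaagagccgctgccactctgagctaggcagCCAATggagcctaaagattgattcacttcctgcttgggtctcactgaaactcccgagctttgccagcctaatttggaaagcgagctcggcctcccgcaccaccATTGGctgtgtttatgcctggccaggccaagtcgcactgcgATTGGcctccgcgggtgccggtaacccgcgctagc
Motifs were counted on both strands over the 300 bases from 250 before to 50 after each start, with overlapping matches counted separately. CCAAT was chosen as a motif after the promoters had been read. It occurred 2 times in Pou3f2 and 3 times each in Pou3f3 and Pou3f4. Of 32851 promoters of the same length, 37.4% held at least 1 CCAAT, 11.7% at least 2 and 3.37% at least 3. The first bases of the boxes lay at positions -229 and -166 from the start of Pou3f2, at -160, -103 and -84 from that of Pou3f3, and at -179, -76 and -35 from that of Pou3f4. No E-box (CANNTG), octamer (ATGCAAAT) or TATA box (TATAAA) was found in these 3 windows, against 72.3%, 1.74% and 13.6% of all promoters. The GC box GGGCGG occurred 5 times in Pou3f2, where matches overlap, 1 time in Pou3f3 and 0 times in Pou3f4, and in 35.7% of all promoters. The GC content of the windows was 67.7% in Pou3f2, 60.3% in Pou3f3 and 57.7% in Pou3f4, above the median of 52.7% over all promoters.

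Libraries held 3084428 to 9689996 read counts in transcripts, and the 2 libraries of a group had Spearman correlations across genes of 0.954 to 0.988. The fibroblast label of the first cultures fits their markers, since all 10 fibroblast markers had at least 1 FPKM on day 1. They summed to 27.7 to 28.8 FPKM in giNPC P6, against 4700 to 4770 FPKM on day 1. All 8 neural progenitor markers had at least 1 FPKM in pre-NPC, giNPC P6 and Brain-NPC, with sums of 2620 to 3890, 4260 to 5840 and 4400 to 4530 FPKM. Macrophage markers summed to 11200 to 11700 FPKM on day 7, against 714 to 729 FPKM on day 1. The giNPC P6 libraries stood apart from each other. Replicate 1 had 64.7 FPKM of Xist, 0 FPKM of the Y-linked Eif2s3y, 20.4 FPKM of Dcx and 44.8 FPKM of Olig2. Replicate 2 had 2.13, 29.8, 1.14 and 187 FPKM of the same genes in that order. Ddx3y, also Y-linked, had 2.6 FPKM in replicate 1 and 10.1 in replicate 2. The pre-NPC libraries differed in Eif2s3y as well, at 1.57 and 22.2 FPKM. Where leaving out either giNPC P6 library changed a call or the direction of a member, or moved a called value by over 1.5 times, the value without it is given beside the result.

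Levels below are FPKM, fragments scaled to the length of the transcript model and to library size. They may be set side by side between genes, although the models cover unlike parts of the members' transcripts. Changes are log2 fold changes with standard errors from edgeR's quasi-likelihood test on counts, with p-values adjusted by Benjamini-Hochberg over 14292 genes. A call needs both a change of 2-fold or more and an adjusted p below 0.05. Where a group had 1 to 3 counts over its 2 libraries, the ratio of normalised counts is given with its 95% interval, which covers counting error only. Where it had 0 counts, a bound against 3 counts over both libraries is given. In bulk RNA, fewer cells expressing a gene and less RNA per cell cannot be told apart, and this holds for every level and change below.

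All members were low or undetected in the fibroblast cultures up to day 4 and were called higher than day 1 from day 14 onwards. They were not first called on the same day. Pou3f2 was called earliest, on day 7, from 1 read on day 1. Pou3f3 and Pou3f4 were first called on day 10, and Pou3f1 on day 14. This is the order of calls against day 1, not of first detection. Pou3f3 already had 42 reads on day 1. On day 7 it had 1.01 and 1.1 FPKM, against 0.357 and 0.406 FPKM of Pou3f2. The place of Pou3f1 depended on the test: on day 10 it missed the threshold by edgeR (adjusted p = 0.062), but was called with a replicate block (adjusted p = 0.0459, edgeR), without a filter on low counts (adjusted p = 0.00282, edgeR), by DESeq2 (adjusted p = 0.0375) and by limma on log2(FPKM + 0.1) (adjusted p = 0.00143). The value of Pou3f2 for day 7 over day 1 was 0.46 by limma on log2(FPKM + 1), under 2-fold. At day 4 none of the 4 members was called against day 1, in a comparison in which 10.3% of all genes were called. None of the 4 had an unadjusted p under 0.05 there by edgeR, and DESeq2 and limma called 0 as well. At day 7, 1 of 4 was called, against 15.7% of all genes, and on day 10, 3 of 4, against 22%. At days 14, 17 and 21 all 4 were called higher, against backgrounds of 27.6%, 36.6% and 35.6% of genes called in either direction. By days 17 and 21 such a call was common among genes in general.

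**Figure D1:**
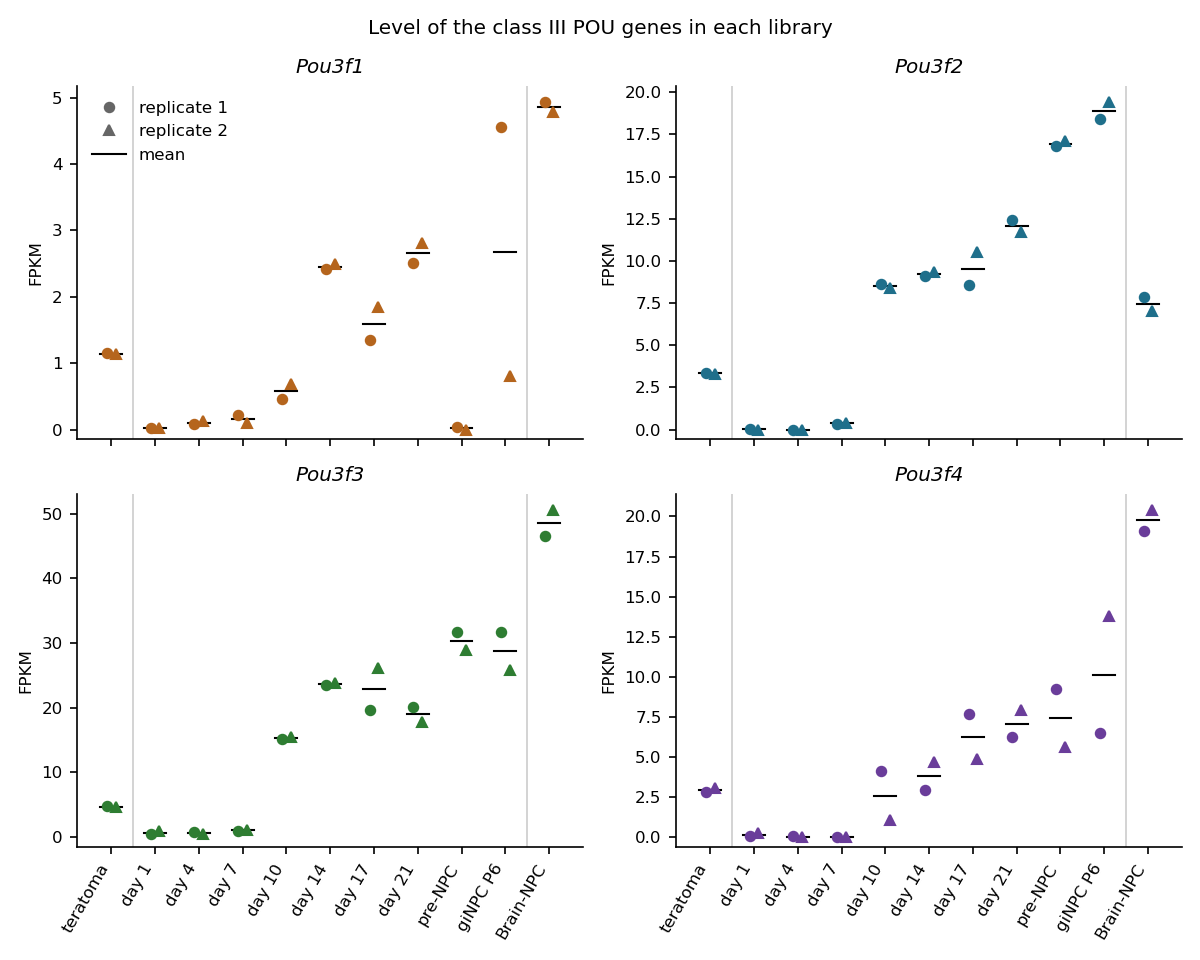
FPKM (vertical axis, a separate scale for each gene) of Pou3f1, Pou3f2, Pou3f3 and Pou3f4 in each library of teratoma, days 1 to 21, pre-NPC, giNPC P6 and Brain-NPC; circles are replicate 1, triangles replicate 2 and bars the mean. Pou3f2, Pou3f3 and Pou3f4 leave the baseline between days 7 and 10, Pou3f1 is near 0 in pre-NPC, and Pou3f2 alone is higher in both libraries of giNPC P6 (18.4 and 19.4 FPKM) than in Brain-NPC (7.84 and 7.04 FPKM).

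Pou3f2 had 0.012 and 0 FPKM on day 1 and 0 FPKM in both libraries on day 4, with 1 read in all. It had 0.357 and 0.406 FPKM on day 7, 8.63 and 8.38 on day 10, 9.08 and 9.37 on day 14, 8.59 and 10.5 on day 17, and 12.4 and 11.7 on day 21. Both libraries of each day from day 7 onwards lay above all 4 libraries of days 1 and 4. The ratio of day 7 to day 1 was 52.8 (95% interval 8.96 to 2140, adjusted p = 2.56e-06 by edgeR's quasi-likelihood test with Benjamini-Hochberg adjustment). Against day 4, day 7 was at least 19.9-fold higher (adjusted p = 1.2e-05, edgeR), the only call among the members in a step where 3.27% of genes were called. A further step followed between days 7 and 10, with a log2 fold change of 3.86 ± 0.24 (adjusted p = 5.05e-10, edgeR), or 4.47 without day 7 replicate 2. From day 10 Pou3f2 was on a plateau: its log2 fold change was 0.05 ± 0.18 from day 10 to day 14, and no later step of the time course was called. The ratio of day 21 to day 1 was 1080 (193 to 42700, adjusted p = 6.37e-14, edgeR).

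Pou3f3 was the only member with a clear signal in the starting cultures. It had 0.509 and 0.896 FPKM on day 1, 0.811 and 0.537 on day 4, and 1.01 and 1.1 on day 7. The days 1 and 4 overlapped, and both day 7 libraries lay above both earlier days. The log2 fold change of day 7 over day 1 was 0.82 ± 0.34 (adjusted p = 0.0851, edgeR) and did not pass the test; without day 1 replicate 2 it was 1.67 and passed. Pou3f3 then had 15.2 and 15.5 FPKM on day 10, 23.6 and 23.9 on day 14, 19.7 and 26.2 on day 17, and 20.2 and 17.8 on day 21. Every library from day 10 onwards was above 15 FPKM, and days 14 and 17 overlapped. The step from day 7 to day 10 was 3.12 ± 0.26 on the log2 scale (adjusted p = 1.31e-08, edgeR). That from day 10 to day 14 was 0.79 ± 0.20 (adjusted p = 0.00488, edgeR), under the 2-fold limit. Day 21 was higher than day 1 by 4.25 ± 0.27 (adjusted p = 2.38e-11, edgeR), a value of 3.60 when day 1 replicate 1 was left out and of 5.09 when day 1 replicate 2 was.

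Pou3f4 had 0.0811 and 0.25 FPKM on day 1, 0.0803 and 0 on day 4, and 0 in both libraries on day 7, from no more than 1 read in either library. It had 4.13 and 1.05 FPKM on day 10, 2.92 and 4.68 on day 14, 7.66 and 4.85 on day 17, and 6.22 and 7.95 on day 21. Libraries of the same day differed by up to several-fold, so that days 10 and 14 overlapped, as did days 17 and 21, while every library from day 10 onwards lay above every earlier one. Day 10 was at least 9.88-fold higher than day 7 (adjusted p = 0.00097, edgeR), and the ratio of day 10 to day 1 was 38.2 (6.61 to 1530, adjusted p = 0.00062, edgeR). No later step of the time course was called for Pou3f4. The ratio of day 21 to day 1 was 117 (20.4 to 4670, adjusted p = 6.07e-06, edgeR).

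Pou3f1 was the last member called and the lowest from day 10 onwards. It had 0.0259 and 0.0268 FPKM on day 1, 0.0774 and 0.124 on day 4, and 0.224 and 0.105 on day 7, with 2 reads in all on each of these days. It had 0.461 and 0.692 FPKM on day 10, 2.42 and 2.49 on day 14, 1.35 and 1.84 on day 17, and 2.51 and 2.81 on day 21. The libraries of days 14 to 21 all lay above those of days 1 to 10. The ratio of day 10 to day 1 was 10.1 (2.6 to 87.1, adjusted p = 0.062, edgeR) and did not pass the test, although it passed in the other fits named above. Day 14 was higher than day 10 by 2.45 ± 0.72 (adjusted p = 0.0155, edgeR), and this call did not hold without day 10 replicate 1 (1.91, adjusted p = 0.143, edgeR) or without day 14 replicate 2 (2.28, adjusted p = 0.0692, edgeR), while it was 3.55 without day 10 replicate 2. The ratio of day 21 to day 1 was 64.5 (17.3 to 541, adjusted p = 0.00013, edgeR).

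Between consecutive days, the members called were 3 of 4 from day 7 to day 10, where 13.6% of all genes were called, and 1 of 4 (Pou3f1) from day 10 to day 14, where 16.0% were. From day 14 to day 17 and from day 17 to day 21 no member was called by edgeR, DESeq2 or limma, against 16.6% and 7.19% of genes called by edgeR. In these later steps 1 of the 8 tests by edgeR had an unadjusted p under 0.05, that of Pou3f3 from day 17 to day 21 (-0.43 ± 0.20, unadjusted p = 0.0456, edgeR). Macrophage markers summed to 4120 to 4250 FPKM on day 10, against the 11200 to 11700 FPKM of day 7, and neural progenitor markers to 5250 to 5300 FPKM on day 14, against 182 to 202 FPKM on day 7. The part of such shifts in cell content in the members' changes was not tested.

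Summed over the 4 members, expression went through the same stages. The sum was 0.628 and 1.17 FPKM on day 1, 1.59 and 1.61 on day 7, 28.4 and 25.6 on day 10, and 41.3 and 40.3 on day 21. It was 57.9 and 51.7 FPKM in pre-NPC, 61.2 and 59.9 in giNPC P6, and 78.4 and 82.8 in Brain-NPC. Brain-NPC thus held the highest total and the induced cells a lower one that did not overlap with it. Teratoma was far lower, with 12.1 FPKM in both libraries.

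**Figure D2:**
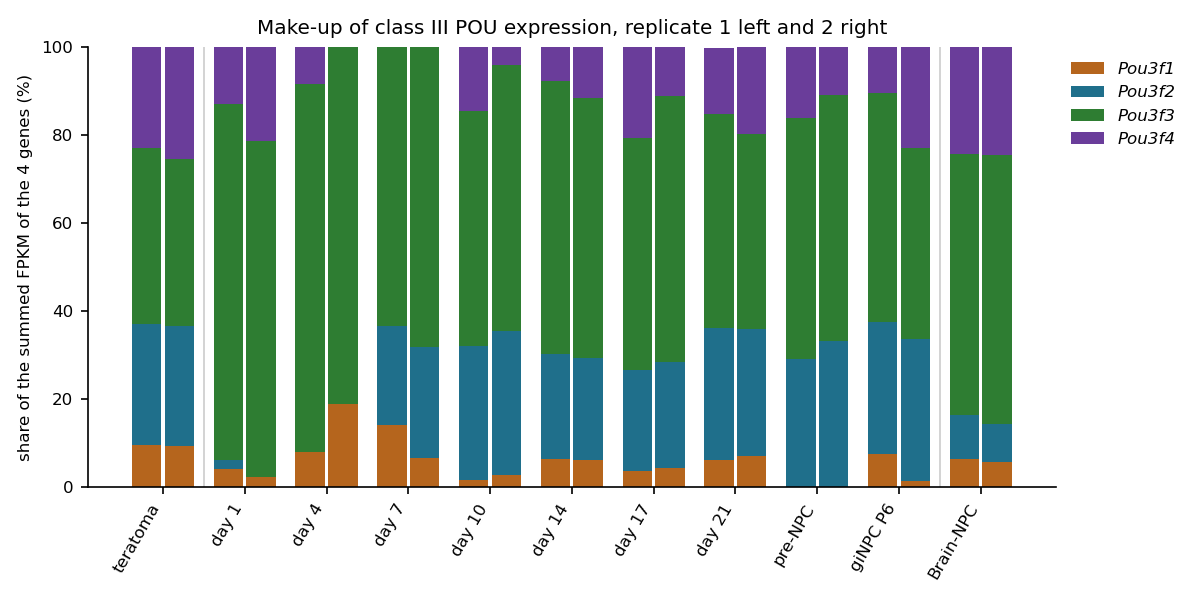
Share of each gene in the summed FPKM of the 4 genes (vertical axis, percent) per library, with replicate 1 left and replicate 2 right in each group. Pou3f2 takes 30.1% and 32.4% in giNPC P6, against 10.0% and 8.5% in Brain-NPC; sums on days 1 to 7 are at most 1.61 FPKM, so shares there rest on few reads.

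The make-up of that sum differed between the induced line and brain progenitors. Pou3f2 made up 30.1% and 32.4% of it in giNPC P6, against 10.0% and 8.5% in Brain-NPC. Pou3f3 made up 51.9% and 43.2% in giNPC P6, against 59.3% and 61.1% in Brain-NPC. Pou3f4 made up 10.6% and 23.1% in giNPC P6, against 24.4% and 24.6% in Brain-NPC. No giNPC P6 library overlapped with Brain-NPC in any of these shares. The ratio of Pou3f3 to Pou3f2 in FPKM summed this up, at 1.72 and 1.33 in giNPC P6 against 5.93 and 7.19 in Brain-NPC. It was 1.88 and 1.69 in pre-NPC and 1.46 and 1.39 in teratoma, so that Brain-NPC was apart from every other neural group in the dominance of Pou3f3 over Pou3f2. From day 10 to day 21 the ratio was highest on day 14, at 2.59 and 2.55.

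The step from the day 21 cultures to the neurosphere-like clusters separated Pou3f1 from the other members. Pou3f1 had 0.0352 and 0 FPKM in pre-NPC, without a read counted in either library, against 2.51 and 2.81 FPKM on day 21. It was at least 44-fold lower in pre-NPC (adjusted p = 0.00013, edgeR), and it was the single called member where 17.5% of all genes were called. Pou3f2 had 16.8 and 17.1 FPKM in pre-NPC, against 12.4 and 11.7 on day 21. Pou3f3 had 31.7 and 28.9 FPKM in pre-NPC, against 20.2 and 17.8 on day 21. Both were higher in pre-NPC in every library, by 0.80 ± 0.18 (adjusted p = 0.00187, edgeR) and 0.85 ± 0.20 (adjusted p = 0.00278, edgeR) on the log2 scale, which is under 2-fold. Without day 21 replicate 1 the value for Pou3f3 was 1.00 and reached the limit. Pou3f4, with 9.25 and 5.62 FPKM in pre-NPC against 6.22 and 7.95 on day 21, overlapped between the groups (0.47 ± 0.49, adjusted p = 0.518, edgeR).

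In the established line Pou3f1 was back. It had 4.56 and 0.803 FPKM in giNPC P6, against 0.0352 and 0 FPKM in pre-NPC, and was at least 35.2-fold higher in giNPC P6 (adjusted p = 0.000159, edgeR). This was 1 call of 4 members where 18.5% of genes were called, and a fit to only these 4 libraries put its adjusted p at 0.05, so that the call was lost there. The giNPC P6 libraries held 126 and 15 reads of Pou3f1, and their FPKM differed 5.68-fold, the library with more Pou3f1 being the one with more Dcx and less Olig2. The bound was at least 7-fold without giNPC P6 replicate 1 (adjusted p = 0.00292, edgeR) and at least 67.7-fold without giNPC P6 replicate 2 (adjusted p = 1.65e-07, edgeR), so that the size of the change rested on the library. The remaining members were close between giNPC P6 and pre-NPC. Pou3f2 had 18.4 and 19.4 FPKM in giNPC P6, against 16.8 and 17.1 in pre-NPC, a log2 fold change of 0.03 ± 0.17 in the counts. Pou3f3 had 31.7 and 25.9 FPKM in giNPC P6, against 31.7 and 28.9 in pre-NPC (-0.12 ± 0.19). Pou3f4 had 6.47 and 13.8 FPKM in giNPC P6, against 9.25 and 5.62 in pre-NPC (0.15 ± 0.46, or -0.51 without giNPC P6 replicate 2), and both Pou3f3 and Pou3f4 overlapped between the groups.

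Among day 21, pre-NPC and giNPC P6, the summed oligodendrocyte lineage markers were highest in pre-NPC, where Pou3f1 was lowest. The oligodendrocyte lineage markers summed to 62.6 to 65.8 FPKM on day 21, 178 to 262 in pre-NPC and 7.43 to 13.8 in giNPC P6. They also summed to 176 to 187 FPKM on day 17, with Pou3f1 at 1.35 and 1.84 FPKM. In teratoma they summed to 476 to 479 FPKM, with Pou3f1 at 1.15 and 1.14 FPKM. The Schwann cell and neural crest markers summed to 4.62 to 5.1 FPKM in giNPC P6, against 26.1 to 32.2 in pre-NPC, with Foxd3 at 0 in both groups. Sox10, which is in both lists, made up most of that sum in pre-NPC (30.4 and 24.6 FPKM). The Schwann cell markers did not move as one: Egr2 was lower in pre-NPC than on day 21 and in giNPC P6, as described further on, and Ngfr had 0.0928 and 0 FPKM in pre-NPC, against 2.09 and 1.57 on day 21, and 0.532 and 0.121 in giNPC P6. Astrocyte markers summed to 714 to 899 FPKM in giNPC P6, against 1540 to 2670 in pre-NPC. The part of these cell contents in the changes of Pou3f1 was not tested.

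Compared with brain progenitors, the induced line had more Pou3f2 and did not differ past the threshold in the other members. Pou3f2 had 18.4 and 19.4 FPKM in giNPC P6, against 7.84 and 7.04 in Brain-NPC, and was higher by 1.48 ± 0.18 (adjusted p = 3.56e-06, edgeR), 1 of 4 members called where 16.6% of genes were. Pou3f3 had 31.7 and 25.9 FPKM in giNPC P6, against 46.5 and 50.6 in Brain-NPC, a difference of -0.79 ± 0.19 (adjusted p = 0.00355, edgeR) that stayed under 2-fold although the groups did not overlap. Pou3f4 had 6.47 and 13.8 FPKM in giNPC P6, against 19.1 and 20.4 in Brain-NPC (-0.92 ± 0.45, adjusted p = 0.129, edgeR). Both of its giNPC P6 libraries were lower than both Brain-NPC libraries, and without giNPC P6 replicate 2 the value was -1.57 (adjusted p = 0.0297, edgeR). Pou3f4 is X-linked, and the library with more of it was the one with 29.8 FPKM of Eif2s3y and 2.13 FPKM of Xist. Brain-NPC, with more Pou3f4 still, had the reverse, with 0.0512 and 0.142 FPKM of Eif2s3y and 45.3 and 46.5 of Xist. Day 1 had 40.4 and 42.1 FPKM of Eif2s3y and 0.0186 and 0.00858 of Xist, so groups differed in sex-linked genes too. The part of this in the level of Pou3f4 was not tested. Pou3f1 had 4.56 and 0.803 FPKM in giNPC P6, against 4.93 and 4.78 in Brain-NPC (-1.03 ± 0.62, adjusted p = 0.227, edgeR). That value rested on the library: it was -0.16 without replicate 2 and -3.43 without replicate 1 (adjusted p = 0.000441, edgeR).

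**Figure D3:**
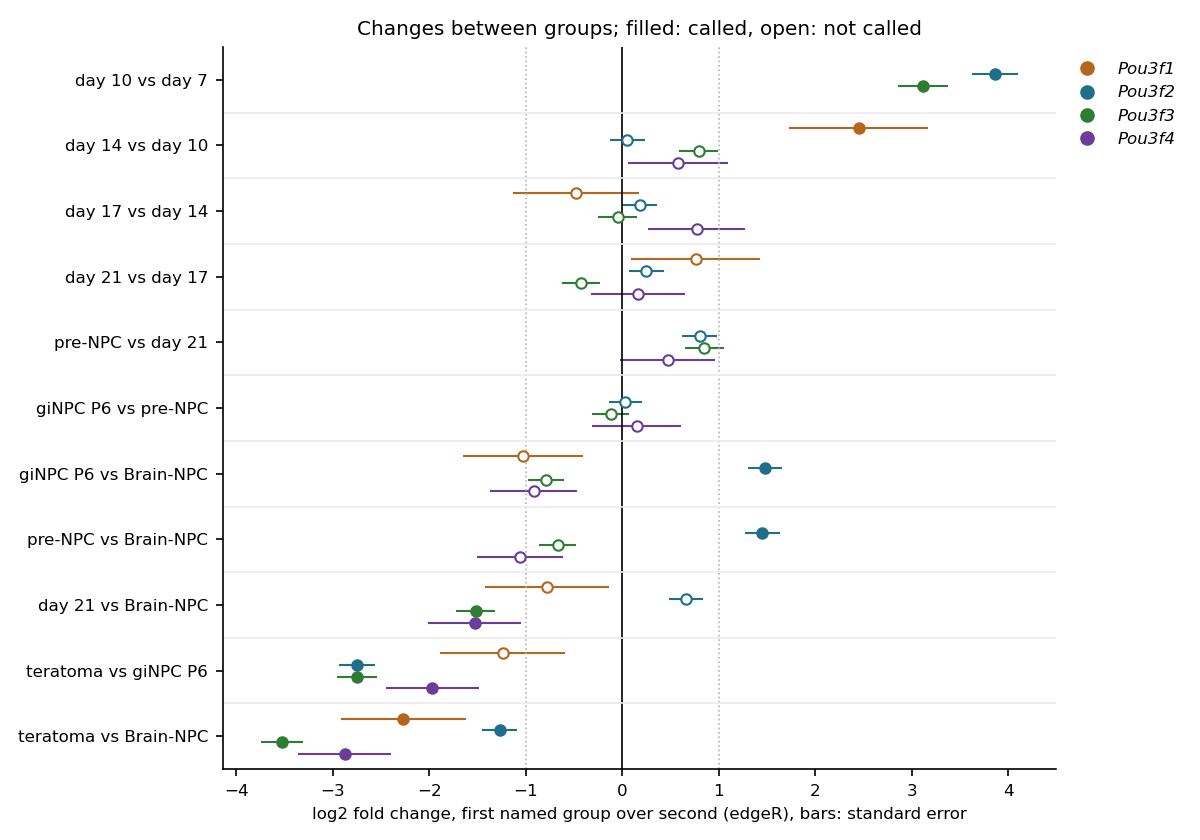
Log2 fold change of counts (horizontal axis) of the first named group over the second, with standard errors from edgeR; filled points are called and open points are not, dotted lines mark 2-fold, and genes with 3 counts or fewer in either group are left out. Pou3f2 alone is to the right of zero in giNPC P6 and pre-NPC against Brain-NPC, and all called points of teratoma are to the left.

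In pre-NPC, too, Pou3f2 was higher than in Brain-NPC by 1.45 ± 0.18 (adjusted p = 1.12e-06, edgeR), and Pou3f1 was at least 75.5-fold lower (adjusted p = 8.85e-06, edgeR), which made 2 of 4 members called where 34.4% of genes were. Pou3f3 differed by -0.67 ± 0.19 (adjusted p = 0.00633, edgeR), under 2-fold. Pou3f4 differed by -1.06 ± 0.45 (adjusted p = 0.0573, edgeR), and was called without pre-NPC replicate 1 (-1.52, adjusted p = 0.0456, edgeR). At day 21, Pou3f3 was lower than in Brain-NPC (-1.52 ± 0.20, adjusted p = 3.64e-06, edgeR), as was Pou3f4 (-1.53 ± 0.48, adjusted p = 0.0128, edgeR), 2 of 4 called where 28.1% of genes were. The call of Pou3f4 was lost without day 21 replicate 1 (-1.21, adjusted p = 0.132, edgeR) and without Brain-NPC replicate 1 (-1.52, adjusted p = 0.0505, edgeR). Pou3f2 was already above Brain-NPC on day 21, by 0.66 ± 0.18 (adjusted p = 0.00572, edgeR), and Pou3f1 differed by -0.78 ± 0.64 (adjusted p = 0.349, edgeR). Against day 1, all 4 members were called higher in giNPC P6, where 43.2% of all genes were called. The ratios of giNPC P6 to day 1 were 51.6 for Pou3f1 (14 to 431), 1910 for Pou3f2 (343 to 75600) and 182 for Pou3f4 (32.4 to 7230), and Pou3f3 was higher by 4.99 ± 0.27 on the log2 scale (adjusted p = 7.99e-13, edgeR). The ratio of Pou3f1 was 10.3 without giNPC P6 replicate 1 (adjusted p = 0.0109, edgeR) and 99.2 without replicate 2 (adjusted p = 1.27e-07, edgeR). That of Pou3f4 was 242 without giNPC P6 replicate 1 and 113 without replicate 2, and both members kept their calls. Pou3f3 changed by 4.41 when day 1 replicate 1 was left out, and by 5.90 in the absence of day 1 replicate 2.

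Ordered by mean level, the groups ranked differently for each member. Brain-NPC was first for Pou3f1 (4.85 FPKM), Pou3f3 (48.5 FPKM) and Pou3f4 (19.8 FPKM), each apart from the next group, while for Pou3f2 it was only the seventh (7.44 FPKM), behind giNPC P6 (18.9), pre-NPC (17.0) and days 21 to 10. For Pou3f1, giNPC P6 followed with 2.68 FPKM and overlapped with day 21, and pre-NPC was last at 0.0176 FPKM, overlapping with day 1. For Pou3f3, pre-NPC (30.3 FPKM) and giNPC P6 (28.8) overlapped, and both lay above day 14 (23.7). Day 14 overlapped with day 17 (22.9), and day 17 with day 21 (19.0). For Pou3f4, giNPC P6, pre-NPC, day 21 and day 17 (10.1, 7.44, 7.08 and 6.25 FPKM) each overlapped with the next, so their order is not resolved.

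Teratoma held all members at levels above every library of days 1 to 7 and, except for Pou3f1, below every library of pre-NPC, giNPC P6 and Brain-NPC. Pou3f2 had 3.34 and 3.31 FPKM in teratoma, against 18.4 and 19.4 in giNPC P6 and 7.84 and 7.04 in Brain-NPC. Pou3f3 had 4.86 and 4.61 FPKM in teratoma, against 31.7 and 25.9 in giNPC P6 and 46.5 and 50.6 in Brain-NPC. Both genes were below every progenitor library. The log2 fold change of teratoma over giNPC P6 was -2.75 ± 0.19 for Pou3f2 (adjusted p = 1.43e-10, edgeR) and -2.75 ± 0.21 for Pou3f3 (adjusted p = 5.39e-10, edgeR). Pou3f4 had 2.79 and 3.08 FPKM in teratoma, against 6.47 and 13.8 in giNPC P6 and 19.1 and 20.4 in Brain-NPC. It was called lower than in giNPC P6 (-1.97 ± 0.48, adjusted p = 0.00143, edgeR), with a value of -1.32 without giNPC P6 replicate 2. Pou3f1 had 1.15 and 1.14 FPKM in teratoma, against 4.56 and 0.803 in giNPC P6, and lay between the giNPC P6 libraries. Its log2 fold change of -1.24 ± 0.65 (adjusted p = 0.105, edgeR) turned round without giNPC P6 replicate 1 (1.15, adjusted p = 0.136, edgeR), and was -2.11 (adjusted p = 0.000884, edgeR) without replicate 2.

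In all, 3 of 4 members were called lower in teratoma than in giNPC P6, where 42.6% of all genes were called, and 4 of 4 were lower than in Brain-NPC, where 49.2% were. Against Brain-NPC the log2 fold changes were -2.27 ± 0.65 for Pou3f1 (adjusted p = 0.00439, edgeR), -1.27 ± 0.18 for Pou3f2 (5.28e-06), -3.53 ± 0.22 for Pou3f3 (1.28e-11) and -2.88 ± 0.48 for Pou3f4 (3.21e-05), beside a median of 0.19 over all genes. The teratoma held many other tissues: fibroblast markers summed to 1970 to 2010 FPKM, keratinocyte markers to 134 to 140 FPKM, and neural progenitor markers to 521 to 539 FPKM. Neuron markers summed to 635 to 646 FPKM in teratoma, against 150 to 218 FPKM in giNPC P6. The part of this tissue mixture in the members' levels was not tested.

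Pou3f3 lies between genes of long noncoding RNAs, and these varied with it. In the mm9 models, 2610017I09Rik (RefSeq name Pantr1) ends 2320 bases before Pou3f3 and 2900092D14Rik begins 126 bases after it. The GENCODE transcript of Pou3f3, at 7409 bases, is longer than its mm9 model of 3064 bases, so these distances hold for the models only. Whether reads counted for 2900092D14Rik came from a longer Pou3f3 transcript was not tested. The next genes of the other members are protein-coding genes or models that were mostly at 0, at distances of 18108 bases (Utp11l, beside Pou3f1) or more. The noncoding RNA 2610017I09Rik had 0 and 0.531 FPKM on day 7, 15.2 and 16.0 on day 10, 36.1 and 41.7 on day 14, and 37.6 and 31.0 on day 21. It had 74.5 and 49.3 FPKM in pre-NPC, 75.4 and 110 in giNPC P6, and 82.3 and 85.4 in Brain-NPC. Day 10 was thus its first day above 1 FPKM, as for Pou3f4, and it exceeded Pou3f3 itself from day 14 onwards. Its step from day 7 to day 10 was 3.84 ± 0.42 on the log2 scale (adjusted p = 6.02e-07, edgeR), beside 3.12 ± 0.26 for Pou3f3.

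The close neighbour 2900092D14Rik was at 0.17 FPKM or less up to day 7, and had 2.48 and 1.87 FPKM on day 10 and 3.75 and 3.6 on day 14. It had 4.68 and 4.79 FPKM in pre-NPC, 4.92 and 3.62 in giNPC P6, and 2.86 and 2.83 in Brain-NPC. Unlike Pou3f3, it was highest in the induced cells by mean, and it was called higher in pre-NPC than on day 21 (1.78 ± 0.48, adjusted p = 0.0074, edgeR). Neither noncoding RNA passed the test between giNPC P6 and Brain-NPC (0.12 ± 0.22 for 2610017I09Rik and 0.67 ± 0.43 for 2900092D14Rik). In teratoma, 2610017I09Rik had 10.5 and 9.91 FPKM and 2900092D14Rik had 0.805 and 0.721 FPKM, both called lower than in giNPC P6 (-3.33 ± 0.25, adjusted p = 3.23e-10, and -2.83 ± 0.47, adjusted p = 2.91e-05, edgeR).

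**Figure D4:**
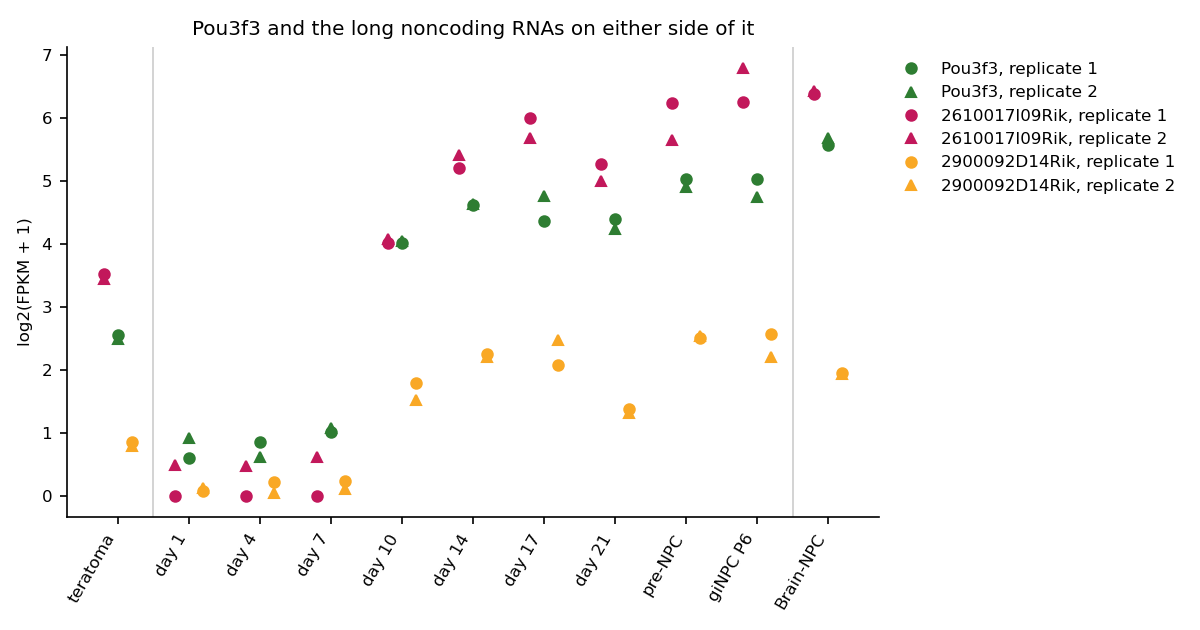
Levels as log2(FPKM + 1) (vertical axis) of Pou3f3 and the noncoding RNAs 2610017I09Rik and 2900092D14Rik in each library; circles are replicate 1 and triangles replicate 2. All are low up to day 7 and higher from day 10, and 2610017I09Rik is above Pou3f3 from day 14 onwards and in teratoma.

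Reads of neighbouring or overlapping genes could in principle reach a member's count. No gene of the mm9 models overlapped a member. In the GENCODE annotation of GRCm38, the antisense gene Gm2164 overlaps 363 bases of Pou3f1, and AC122898.1 covers the whole Pou3f3 transcript on the same strand. Whether counting was stranded is not stated in the sources used here. Reads of Pou3f1 and Gm2164 in that overlap could therefore not be told apart. Any reads of AC122898.1 from within the Pou3f3 transcript could not be told apart from those of Pou3f3 even by stranded counting. Their part in the levels and shares of Pou3f3 was not tested. The neighbours of Pou3f2 did not share its course. Fbxl4, 48048 bases away, had 6.34 and 7.86 FPKM in giNPC P6, against 6.48 and 5.02 on day 1, and Mms22l had 4.11 and 3.75 FPKM in giNPC P6, against 2.38 and 2.36 on day 1.

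Several genes of SOX factors, with which class III POU proteins bind DNA, rose over the same days. On day 1, Sox1, Sox2, Sox3 and Sox10 were at 0.5 FPKM or less. Sox4, with 18.0 and 19.4 FPKM, and Sox11, with 4.83 and 4.63 FPKM, were already present then. Of 6 SOX partner genes, all tested on counts, 2 were called higher from day 4 to day 7, 5 from day 7 to day 10, and none lower in these steps, where 3.27% and 13.6% of all genes were called. Sox2, the progenitor factor, had 41.7 and 43.5 FPKM on day 10, against 4.93 and 4.56 on day 7, and was higher by 3.20 ± 0.25 from day 4 to day 7 and by 2.98 ± 0.17 from day 7 to day 10 on the log2 scale (adjusted p = 1.67e-07 and 8.86e-11, edgeR). Sox2 was thus called in both of these steps, as Pou3f2 was. Unlike Pou3f2 (0.05 ± 0.18), Sox2 was also called higher from day 10 to day 14, with 102 and 103 FPKM on day 14. From day 1 to day 21, where 35.6% of all genes were called, 5 SOX genes were called higher and Sox11, a factor of young neurons, lower (-1.37 ± 0.21, adjusted p = 1.01e-05, edgeR).

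Between giNPC P6 and Brain-NPC no SOX gene was called higher and 2 were lower, where 16.6% of all genes were called, with a list median of 0.20 beside 0 over all genes. Sox10, the factor of oligodendrocyte and Schwann lineages, had 0.855 and 0.248 FPKM in giNPC P6, against 13.5 and 12.6 in Brain-NPC (-5.05 ± 0.40, adjusted p = 6.06e-09, edgeR). It had 30.4 and 24.6 FPKM in pre-NPC, and was called lower in giNPC P6 than there (-6.07 ± 0.40, adjusted p = 2.83e-10, edgeR). Sox10 and Pou3f1 were thus called in opposite directions both from day 21 to pre-NPC, where Sox10 was higher by 2.07 ± 0.31 (adjusted p = 2.71e-05, edgeR), and from pre-NPC to giNPC P6. This held around pre-NPC only: from day 1 to day 21 both were called higher, and Brain-NPC, with the most Pou3f1, held 13.5 and 12.6 FPKM of Sox10. Sox3 in giNPC P6 was lower than in Brain-NPC (-1.40 ± 0.28, adjusted p = 0.000604, edgeR) and higher than in pre-NPC (1.13 ± 0.29, adjusted p = 0.00505, edgeR). Both calls of Sox3 rested on the library: the first was lost without giNPC P6 replicate 1 (-0.92, under 2-fold) and was -2.14 without replicate 2, and the second was lost without giNPC P6 replicate 2 (0.39, adjusted p = 0.289, edgeR). Sox10 stayed called without either library, at -5.93 and -4.46 against Brain-NPC and at -6.94 and -5.48 against pre-NPC, without replicate 1 and without replicate 2 in that order. In teratoma against giNPC P6, 4 SOX genes were lower, Sox10 was higher (3.98 ± 0.40, adjusted p = 2.95e-08, edgeR; 4.85 without giNPC P6 replicate 1 and 3.39 without replicate 2), and the list median was -1.71 beside 0.04 over all genes.

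**Figure D5:**
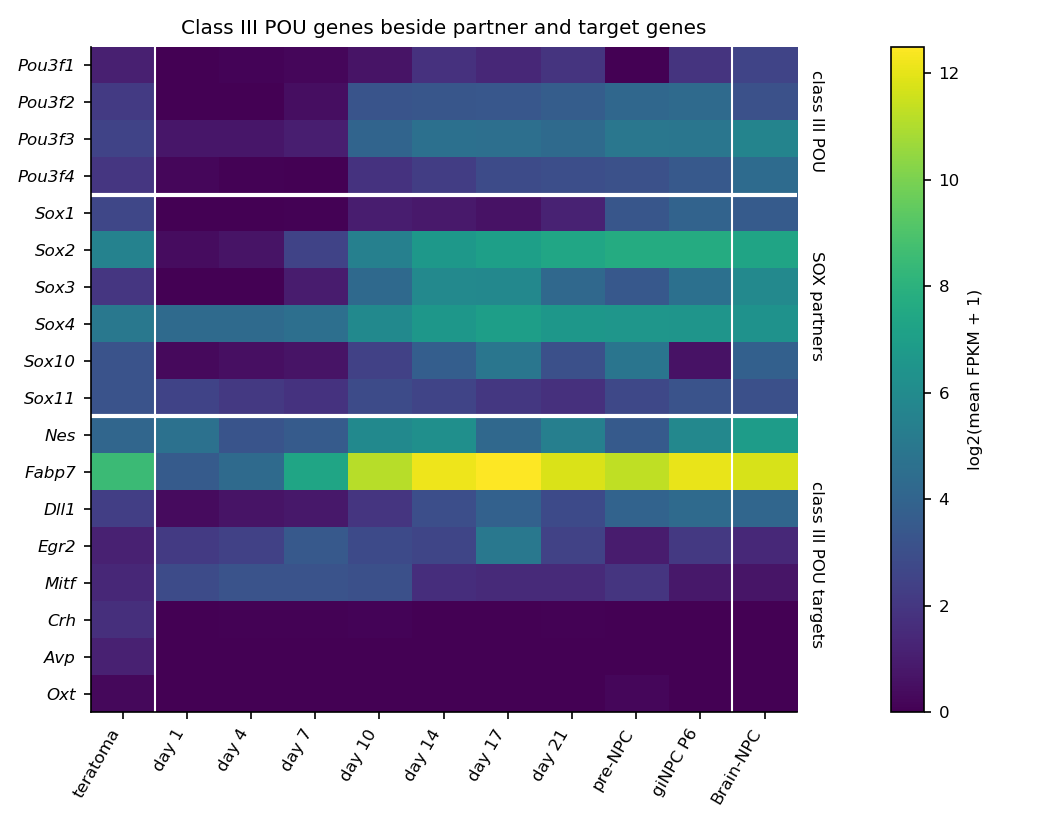
Heat map of log2(mean FPKM + 1) over the 2 libraries of each group (columns) for the class III POU genes, SOX partners and POU targets (rows). Sox2 and Fabp7 brighten over the same days as Pou3f2 and Pou3f3, and Sox10 is dark in giNPC P6, with 0.855 and 0.248 FPKM.

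Genes known as targets of class III POU factors were a mixed list. Of 9 listed, 6 were tested on counts, and 3 of these were called higher on day 21 than on day 1 and 0 lower, where 35.6% of all genes were called in either direction. From day 7 to day 10, 3 were called higher (Sox2, Fabp7 and Nes) and 1 lower, where 13.6% of all genes were called. The lower one was Egr2, by -1.15 ± 0.26 (adjusted p = 0.00194, edgeR). Fabp7, the radial glial fatty acid binding protein, had 2240 and 2250 FPKM on day 10, against 168 and 151 on day 7 (3.37 ± 0.49, adjusted p = 2.35e-05, edgeR). Nes, which encodes nestin, had 62.9 and 57.3 FPKM on day 10, against 11.1 and 10.9 on day 7 (2.32 ± 0.13, adjusted p = 1.01e-10, edgeR). Fabp7 and Nes were thus called higher in the same step as Pou3f2, Pou3f3 and Pou3f4. Crh was near 0 outside teratoma, where it had 2.43 and 1.98 FPKM, and the neuropeptide genes Avp and Oxt were at 0.345 FPKM or less outside teratoma, where Avp had 1.35 and 1.03.

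Nes and Egr2 were the targets that changed with Pou3f1 around pre-NPC. Nes had 9.88 and 11.4 FPKM in pre-NPC, against 41.7 and 39.5 on day 21 (-1.68 ± 0.13, adjusted p = 8.25e-09, edgeR), and 55.3 and 56.6 FPKM in giNPC P6 (2.25 ± 0.13 over pre-NPC, adjusted p = 6.21e-11, edgeR). Egr2, which acts below Pou3f1 in myelinating Schwann cells, had 1.04 and 0.886 FPKM in pre-NPC, against 4.55 and 4.43 on day 21 (-2.27 ± 0.35, adjusted p = 3.94e-05, edgeR), and 2.49 and 4.05 FPKM in giNPC P6 (2.22 ± 0.33 over pre-NPC, adjusted p = 2.54e-05, edgeR). Of the 6 tested targets these were the 2 called lower in pre-NPC than on day 21, where 1 other was called higher and 17.5% of all genes were called. They were also the 2 called higher in giNPC P6 than in pre-NPC, with 0 lower, where 18.5% of all genes were called. In both giNPC P6 libraries Egr2 ran against Pou3f1, with the higher Egr2 in the library with the lower Pou3f1. Nes was lower in giNPC P6 than in Brain-NPC (-1.12 ± 0.13, adjusted p = 1.05e-06, edgeR), the single target called there, while without giNPC P6 replicate 1 Egr2 was called higher as well (1.08, adjusted p = 0.00943, edgeR). In teratoma against giNPC P6, 5 targets were lower and 1, Crh, was higher, where 42.6% of all genes were called.

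Of the genes combined with Pou3f2 or Pou3f4 in conversion protocols, Klf4 had 2.21 and 1.53 FPKM on day 21, against 12.8 and 13.2 on day 1 (-2.98 ± 0.26, adjusted p = 3.68e-09, edgeR). It was thus called in the opposite direction to the members in that comparison. For Myt1l only levels are given, because its counts fell under 0.5 of those expected from FPKM and length. Myt1l stayed at 1.23 FPKM or less during the time course, and had 2.0 and 0.045 FPKM in giNPC P6, against 0.223 and 0.196 in Brain-NPC.

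Most other POU genes were low, but not Pou2f2 and Pou6f1. Of 11 listed, 8 stayed under 1 FPKM in every library outside teratoma, the exceptions being Pou2f1, Pou2f2 and Pou6f1. Pou6f1, a class VI member of brain, had 7.02 and 6.74 FPKM on day 21, against 1.94 and 1.82 on day 1 (1.73 ± 0.24, adjusted p = 3.61e-06, edgeR), and 10.9 and 11.2 FPKM in giNPC P6, against 11.5 and 9.53 in Brain-NPC (-0.06 ± 0.21). Like Pou3f2 and Pou3f3 it was called from day 7 to day 10 (1.72 ± 0.25, adjusted p = 2.21e-05, edgeR). Pou2f2, best known from B lymphocytes, was highest on day 4 with 15.8 and 10.6 FPKM, against 1.51 and 2.5 on day 1, while macrophage markers summed to 8050 to 9730 FPKM on day 4. The pluripotency factor Pou5f1 stayed at 0.671 FPKM or less in every library outside teratoma, where it had 2.06 and 1.82 FPKM.

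Cux2, a factor of upper-layer cortical neurons, the neurons that depend on Pou3f2 and Pou3f3 in the mouse, had 0.525 and 0.997 FPKM on day 21, against 0.0297 and 0 on day 1, and was called higher on day 21 (adjusted p = 8.23e-06, edgeR). It did not exceed 2.28 FPKM in any library.

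Across the 11 group means, Pou3f3 and Pou3f4 followed each other most closely (Pearson r = 0.952 on log2(FPKM + 1)), then Pou3f2 and Pou3f3 (0.949) and Pou3f2 and Pou3f4 (0.885). Pou3f1 was the least like the others, with r of 0.598 to Pou3f2, 0.712 to Pou3f3 and 0.78 to Pou3f4. These correlations describe 11 groups that share the same jump between days 7 and 10, and the groups are not independent. Among all 15659 genes with at least 1 FPKM in at least 2 libraries, those most like each member over the 22 libraries were taken by Pearson correlation of log2(FPKM + 1). For Pou3f2 they were Pax6 (0.988), Gpm6b (0.98), Rasal2 (0.979), Nr2f1 (0.979) and Dclk2 (0.978). For Pou3f3 they were Gldc (0.981), Fam181b (0.98), Tmem229a (0.979), the flanking 2610017I09Rik (0.979) and Vdac1 (0.976). For Pou3f4 they were Atp5b (0.974), Tmem44 (0.973), Angel1 (0.972), Zfp142 (0.97) and Gpr19 (0.969), and for Pou3f1 D2Wsu81e (0.937), Snrpa (0.917), Dnlz (0.904), Tspan5 (0.903) and Phb (0.902). The lists depended on the measure: with a pseudocount of 0.1 in place of 1, only 2 of 5 genes stayed for each of Pou3f1, Pou3f2 and Pou3f3 and 1 of 5 for Pou3f4.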

How the data were processed

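Per the labels' protocols, Trizol was used to isolate RNA, poly(A) RNA was taken on oligo(dT) beads, a KAPA kit gave the libraries, and paired ends of 100 bases were read on an Illumina HiSeq. The authors deposited whole-number read counts per RefSeq transcript and, in separate tables, FPKM values per transcript, per the file headers. The submitters' processing notes name TopHat2 2.0.12, Cufflinks 2.2.1, HTSeq 0.6.0, edgeR and the mm9 genome. How edgeR was used, and whether counting was stranded, is not stated there. FPKM and counts were summed by gene name. Between 20.9% and 27.1% of reads fell in transcripts and 48.0% to 56.3% had no feature, and these summary lines were left out of library sizes.

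Counts were tested with edgeR 4.0.16 in R 4.3.3: TMM, filterByExpr, 1 quasi-likelihood fit over the 22 libraries and 11 group means (11 residual degrees of freedom, common biological coefficient of variation 0.161), two-sided, and Benjamini-Hochberg adjustment over 14292 genes within each comparison. All 4 members passed the filter. Standard errors are the log2 fold change divided by the root of F and are approximate. Fitted log2 fold changes of genes at 0 to 3 counts serve only to compare settings. The scripts were tested on simulated counts. Alternatives were DESeq2 1.42.0, limma 3.58.1 on log2(FPKM + 1) and log2(FPKM + 0.1), no filters, only the 4 libraries compared, a replicate block and leaving out each library. Context genes with several transcripts and counts under 0.5 of those expected from FPKM and length are given as FPKM only. The genes named were the 4 members, the listed context genes, flanking genes and, for each member, the 5 genes with the highest Pearson correlation over the 22 libraries. Some listed genes are not reported here. The members and lists were chosen with earlier results of these data known. Intervals at 95% and the bound of 3 counts cover counting error only. Promoters are RefSeq's on GRCm38.p6, transcripts are GENCODE's on GRCm38, and no coordinates were converted.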

Additional observations from a re-analysis of the deposited data

How the results depend on the processing

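Over 19 comparisons, the alternatives that keep all libraries gave 599 log2 fold changes of the members, of which 573 kept their direction and side of the threshold, and leaving out single libraries gave 304, of which 278 did. The reversals were all of changes that were not called. Pou3f1 from day 1 to day 4 was -0.15, against 0.10 by limma on log2(FPKM + 1) with or without a filter and 0.66 on log2(FPKM + 0.1). Pou3f2 in giNPC P6 over pre-NPC was 0.03, against -0.02 with DESeq2 size factors and by DESeq2. The cause was not tested.

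Leaving out single libraries gave these ranges of log2 fold changes. From day 1 to day 4 they were -3.45 to 0.89 for Pou3f1, -0.91 to 0.58 for Pou3f3 and -2.58 to 2.42 for Pou3f4. Pou3f1 ranged from -3.46 to 1.17 for day 7 over day 1 and from -3.29 to 3.74 for day 7 over day 4. Pou3f4 ranged from -0.02 to 1.45 for day 14 over day 10 and from -0.26 to 0.48 for day 21 over day 17, and Pou3f3 from -0.24 to 0.13 for day 17 over day 14. Pou3f3 ranged from 0.70 to 1.00 for pre-NPC over day 21. In giNPC P6 over pre-NPC, Pou3f2 ranged from -0.01 to 0.06 and Pou3f4 from -0.51 to 0.60. In giNPC P6 over Brain-NPC, Pou3f1 ranged from -3.43 to -0.16 and Pou3f4 from -1.57 to -0.48. Pou3f1 in teratoma over giNPC P6 ranged from -2.11 to 1.15, and was called without a filter on counts (-1.23, adjusted p = 0.0177, edgeR). Pou3f1 in giNPC P6 over pre-NPC was 9.05 in the fit of only 4 libraries and lost its call.

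The count of all genes called for day 7 over day 4 was 468, against 231 with only the 4 libraries, 247 by limma on log2(FPKM + 1), 240 by limma without a filter, and 247 to 726 without single libraries. It was 1027 for day 21 over day 17, against 664 to 808 without single libraries. It was 2639 for giNPC P6 over pre-NPC, against 1758 with only the 4 libraries, and 2376 for giNPC P6 over Brain-NPC, against 1564 and 1553 by limma with and without a filter. With limma on log2(FPKM + 1), whose pseudocount shrinks low genes, Pou3f2 for day 7 over day 1 (0.46) and over day 4 (0.47) and in teratoma over Brain-NPC (-0.96) fell under 2-fold. The genes most like each member changed with the measure: of 5, Spearman correlation kept 3 for Pou3f1, 2 for Pou3f2, 0 for Pou3f3 and 3 for Pou3f4, and group means kept 1, 4, 5 and 4 in the same order.

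Libraries with the same replicate number did not deviate together, with correlations of -0.127 to 0.101 (median 0.005) over 55 pairs of groups. A replicate block in the fit gave 0.958 to 1 times as many calls, left Pou3f3 at 4.26 for day 21 over day 1, and added a call of Pou3f1 for day 10 over day 1 (3.21, adjusted p = 0.0459, edgeR), which was also made by DESeq2, by limma on log2(FPKM + 0.1) and without a filter. With 2 libraries per group and few reads of Pou3f1 and Pou3f4, differences well over 2-fold could miss the threshold: the ratio of Pou3f1 on day 10 was 7.87 to day 7 (adjusted p = 0.124, edgeR) and 10.1 to day 1 (adjusted p = 0.062, edgeR). The values of listed partner and target genes, and the ratios of members, without each giNPC P6 library were added after seeing the data.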
